A study of Homo sapiens with 6 samples.

Results

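The genes described here are 10 human genes for ion and water channels of lymphocytes and the subunits that switch them on: AQP3, KCNA3, KCNN4, ORAI1, ORAI2, STIM1, STIM2, HVCN1, TRPM7 and P2RX7. They were taken by symbol from the 57290 annotated genes of the deposited files, and all 10 were among the 19390 tested genes, whose mean TPM (a share of all transcripts, corrected for length) was 1 or more. The set was chosen by the measured levels of AQP3 and KCNA3, which were lower in the TAZ libraries, so the values of these 2 genes are given as a description with no test. The other 8 genes were tested within a fit across all 19390 genes.

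RNA came from KMM1, an established cell line from human multiple myeloma, a malignant counterpart of the antibody-secreting plasma cell. The study compared 3 libraries of cells transduced with a lentivirus expressing TAZ with 3 libraries of cells that received the same kind of virus carrying the empty vector WPI, all with RNA taken on day 4 after transduction. TAZ, the product of WWTR1, is a co-activator of the Hippo pathway that works through TEAD transcription factors. Only this 1 cell line was studied, and the labels do not name the promoter that drives TAZ.

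Lymphocytes let calcium in through a store-operated route. When the endoplasmic reticulum loses calcium, the membrane sensors STIM1 and STIM2 open pores made of ORAI proteins in the plasma membrane, and the calcium that enters can activate calcineurin and NFAT. Calcium entry depends on a negative membrane potential, which 2 potassium channels maintain: Kv1.3, encoded by KCNA3 and opened by voltage, and KCa3.1, encoded by KCNN4 and opened by calcium through bound calmodulin. AQP3 passes water, glycerol and hydrogen peroxide, HVCN1 passes protons out of the cell, TRPM7 is a magnesium- and calcium-permeable channel with its own kinase domain, and P2RX7 is a cation channel opened by extracellular ATP.

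The stretches of 250 bases before the start sites of the 3 genes whose levels differed most are shown because they are the windows in which a match to the TEAD motif was looked for. They are RefSeq sequences on GRCh38.p14, all read on the minus strand from 5′ to 3′, at chr9:33447594-33447843 for AQP3, chr1:110674941-110675190 for KCNA3 and chr19:43780974-43781223 for KCNN4. Both strands were searched for 3 motifs, and capitals mark the matches. The motif of TEAD factors was taken as GGAATG. That of AP-1, a factor often found beside TEAD on DNA, was taken as TGANTCA. The core promoter element known as the TATA box was taken as TATAAA, and none of these motifs overlaps another in the windows shown.
AQP3: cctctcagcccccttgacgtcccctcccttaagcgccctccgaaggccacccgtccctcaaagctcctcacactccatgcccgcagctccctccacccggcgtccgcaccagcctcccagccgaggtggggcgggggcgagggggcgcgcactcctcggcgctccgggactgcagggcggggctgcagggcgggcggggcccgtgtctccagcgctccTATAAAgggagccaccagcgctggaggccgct
KCNA3: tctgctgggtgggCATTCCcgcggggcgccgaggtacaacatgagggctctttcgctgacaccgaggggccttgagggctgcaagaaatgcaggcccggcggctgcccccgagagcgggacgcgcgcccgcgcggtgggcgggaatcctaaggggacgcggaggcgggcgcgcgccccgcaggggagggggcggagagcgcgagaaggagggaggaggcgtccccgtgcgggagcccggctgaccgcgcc
KCNN4: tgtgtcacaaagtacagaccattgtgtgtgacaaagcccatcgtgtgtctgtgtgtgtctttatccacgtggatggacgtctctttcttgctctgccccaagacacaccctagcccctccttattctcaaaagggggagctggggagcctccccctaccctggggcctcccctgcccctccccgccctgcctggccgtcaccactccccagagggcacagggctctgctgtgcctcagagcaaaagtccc
The AQP3 window held a TATA box 32 bases before the start site and no other match. The KCNA3 window, at the most upstream of 3 RefSeq starts, held the TEAD motif on the other strand, read here as CATTCC, 237 bases before the start site. The KCNN4 window held no match to any of the 3. Among 35116 windows of the same length, 11.89% held the TEAD motif, 6.573% the AP-1 motif and 10.72% the TATA box. These are matches of letters, and binding was not measured. The RefSeq starts are on another build than the hg19 exons given below, and the windows were not compared with those exons.

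Aligned sequence came to 1608, 1130 and 1230 megabases in TAZ libraries and 1719, 2033 and 1100 megabases in control libraries, and 73.6% to 75.9% of it lay on annotated transcripts. Pairs of libraries correlated at 0.878 to 0.948 on the log scale, and control library 3 stood apart from control library 1 (0.897). Control library 3 was closer to TAZ libraries 1, 2 and 3, at 0.918, 0.905 and 0.902. WWTR1 was at 216 ± 129 scaled TPM in TAZ libraries and 1.65 ± 0.609 in control libraries (SD, n = 3 each), higher in every TAZ library than in every control library. Summed plasma cell markers were at 2837 to 3233 scaled TPM in TAZ libraries and 2407 to 3130 in control libraries, with 10 of 10 markers found. Of 9 that were tested, 7 had a log2 difference below 0, with a median of -0.69 (-0.05 over all tested genes), and SDC1, IRF4 and SLAMF7 passed the threshold used below and were lower in TAZ libraries. T and NK cell markers summed to 5.58 to 6.85 in TAZ libraries and 5.92 to 8.03 in control libraries, with NKG7 at 0 in every library, and 8 B cell markers to 3.48 to 4.34 in TAZ libraries and 3.77 to 6.46 in control libraries. Myeloid markers, 7 of 8 found, summed to 1.95 to 2.05 in TAZ libraries and 5.09 to 5.87 in control libraries. Of the 7, 6 had a mean under 1 scaled TPM, with CD68 and S100A9 at 0 throughout. Most of each sum was CD14, at 1.27 to 1.67 in TAZ libraries and 3.40 to 5.12 in control libraries, and it was lower in TAZ libraries. The part of these transcripts in the lower KCNA3 and AQP3 levels was not tested. Erythroid and kidney markers, which include other aquaporin-rich cells, summed to at most 0.705 in any library. So the channel genes were measured in cells with plasma cell transcripts and little RNA of other lymphocytes. In RNA from whole cultures, fewer cells that express a gene and less RNA per cell cannot be told apart.

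The 2 lymphocyte potassium channels went opposite ways: KCNA3 was lower and KCNN4 higher in TAZ libraries. The lower KCNA3 level, like that of AQP3, was a ground for choosing the set. KCNN4 was the only 1 of the 8 tested members that passed the threshold, an adjusted p under 0.05 (limma, Benjamini-Hochberg over all tested genes). It rose 9.10-fold. None of the 8 passed it downward, and 7 did not pass. Over all genes tested 3.21% passed, 2.25% upward and 0.964% downward.

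**Figure D1:**
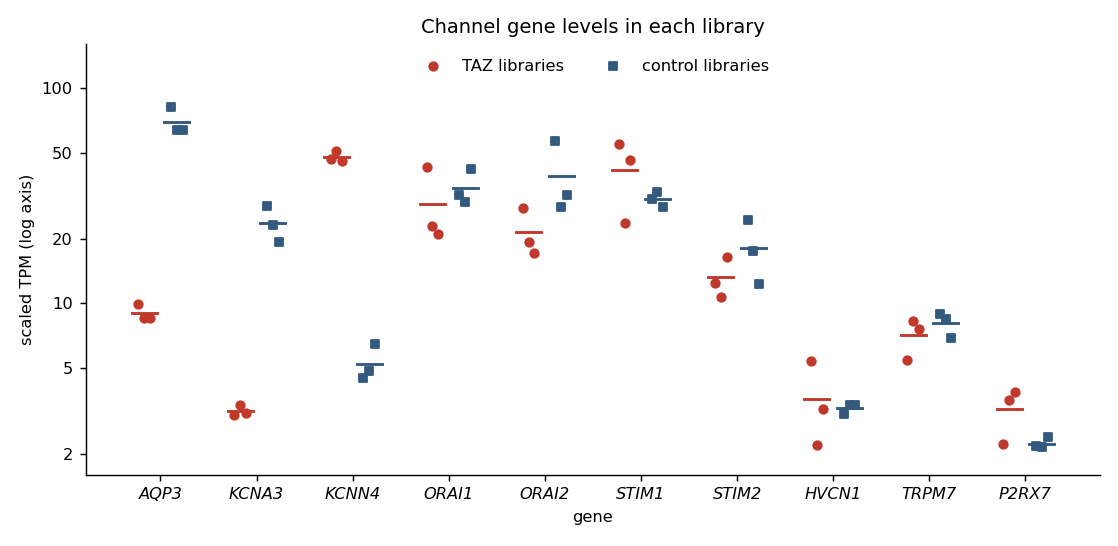
Level of each channel gene in each library, in scaled TPM on a log axis; red circles are TAZ libraries, blue squares control libraries, and the bars are group means (n = 3 each). AQP3 and KCNA3 lie lower and KCNN4 higher in every TAZ library than in every control library, while the other genes lie closer together.

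KCNN4 (ENSG00000104783.7) lies on chromosome 19, 44270685 to 44285409, minus strand, hg19. Its level was 47.0, 50.7 and 45.8 scaled TPM in TAZ libraries 1, 2 and 3, against 4.49, 4.84 and 6.44 in control libraries 1, 2 and 3. The lowest TAZ library was thus well above the highest control library, and the spread within each group was small. The difference was 2.98 ± 0.18 on the log2(scaled TPM + 1) scale (SE, limma, adjusted p = 6.90e-04). KCNN4 stood at place 81 from the top of the 19390 tested genes ordered by log2 difference. Counted as aligned bases rather than TPM, a measure that does not divide by transcript length, the gene was 9.36-fold higher (limma, adjusted p = 4.17e-04). Only bases that were assigned to annotated transcripts enter this measure.

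The KCNN4 reads were not spread evenly over the gene. Most bases were assigned by StringTie to ENST00000600909.1, a transcript of 1190 bases annotated without its start: 86.5%, 82.6% and 79.6% of the gene's bases in TAZ libraries, against 90.3%, 90.1% and 72.9% in control libraries. Its 3′ exon, 44271859 down to 44270685, covers the last 2 exons of the full-length ENST00000262888.3 and the intron of 450 bases between them. Read depth there was 22.4, 23.5 and 20.9 in TAZ libraries, against 2.18, 2.31 and 2.67 in control libraries (mean depth per base for each gigabase aligned, scaled). The first exon of the full-length transcript, 44284855 to 44285409, was read at 6.53, 4.99 and 4.79 in TAZ libraries, against 0.40, 0.31 and 0.59 in control libraries. So both ends of the gene were higher in every TAZ library. Exons 4 and 5 were at 0 in all 6 libraries, and exon 6 was at 0 in the TAZ libraries and at 0.09, 0.21 and 0.44 in the control libraries. The deposited depths are means per annotated exon, so reads in the 450-base intron cannot be separated from reads in the exons beside it, and the values do not show how much complete KCNN4 mRNA was present.

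**Figure D2:**
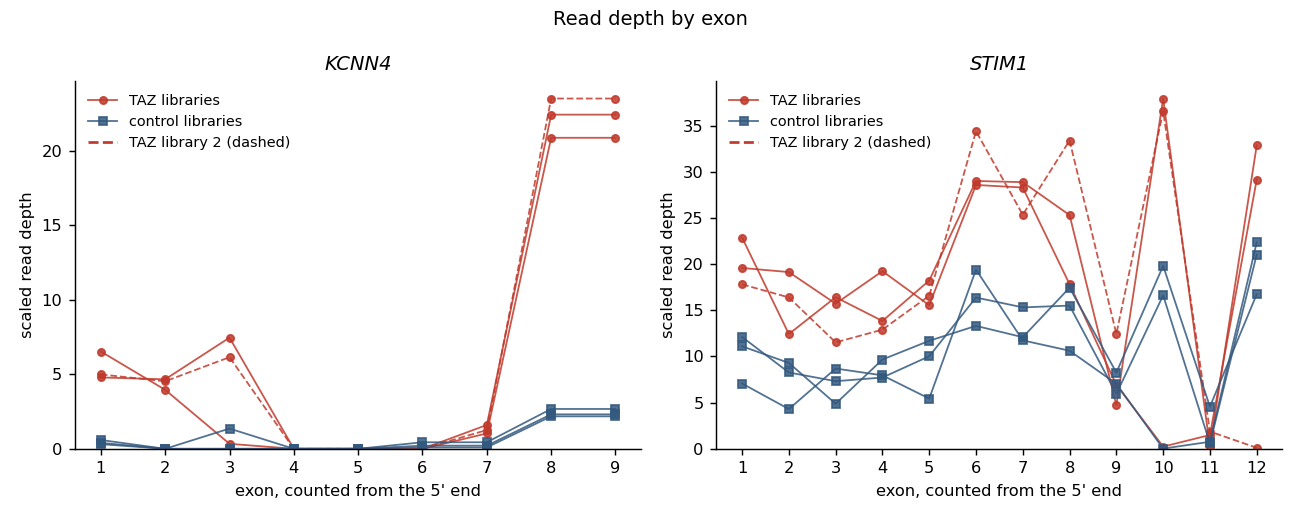
Read depth over the exons of the full-length transcripts of KCNN4 and STIM1 in each library, counted from the 5′ end (mean depth per base for each gigabase aligned, scaled); red circles are TAZ libraries, blue squares control libraries, and TAZ library 2 is dashed. KCNN4 is higher in TAZ libraries at both ends with middle exons at or near 0, and STIM1 in TAZ library 2 is at 0.11 in the last exon.

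Some transcripts of epithelial cells also differed between the groups. The 8 epithelial or packaging line markers summed to 972 to 2312 scaled TPM in TAZ libraries and 198 to 326 in control libraries. Most of each TAZ sum was KRT8, at 2217, 864 and 931 in TAZ libraries, against 120, 171 and 210 in control libraries. The difference between the sums was therefore mainly that of KRT8. Of the 6 that were tested, 4 were higher in TAZ libraries: KRT8, KRT18, CLDN4 and KRT5 (limma, adjusted p = 0.016, 0.0018, 0.017 and 0.015). KRT18, CLDN4 and KRT5 reached at most 17.1, 16.6 and 2.18 in TAZ libraries. None of the 8 was at 0 in every library. EPCAM was at 49.1 ± 5.91 in TAZ libraries and 53.3 ± 27.1 in control libraries, and CDH1 at 25.2 ± 7.08 in TAZ libraries and 48.7 ± 10.5 in control libraries; neither passed the threshold. KCNN4 is also expressed in many epithelia, and the part of these transcripts in its rise was not tested.

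KCNA3 (ENSG00000177272.7) lies on chromosome 1, 111214310 to 111217655, minus strand, hg19, as 1 exon with 1 annotated transcript. Its level was 3.03, 3.36 and 3.11 scaled TPM in TAZ libraries, against 28.4, 23.1 and 19.3 in control libraries. The groups were far apart, and the difference was -2.55 ± 0.19 on the log2 scale. By aligned bases the level in TAZ libraries was 0.13 of that in control libraries, the same as by TPM. With only 1 transcript of 1 exon, the value cannot depend on how reads were shared between transcripts.

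Within a library, the ratio of KCNA3 to KCNN4 does not depend on scaling. It was 0.064, 0.066 and 0.068 in TAZ libraries, against 6.32, 4.79 and 2.99 in control libraries. The voltage-opened channel's transcript was therefore the more abundant per length in each control library and the less abundant in each TAZ library. The size of the ratio does depend on the KCNN4 transcript to which reads were assigned. Full-length KCNN4 alone was at 3.61, 5.10 and 5.48 scaled TPM in TAZ libraries, against 0.192, 0.151 and 0.796 in control libraries. KCNA3 was below it in each TAZ library, by less than the ratio gives, and above it in each control library. On the log2 scale the ratio of KCNA3 to KCNN4, with all transcripts summed, was -3.92 ± 0.04 in TAZ libraries and 2.17 ± 0.55 in control libraries (SD, n = 3 each). The difference of -6.09 is given without a test because KCNA3 was chosen for its difference.

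The other voltage-gated gene of the same cluster with measurable RNA, KCNA2, lies 40.2 kilobases from KCNA3 on the same strand. It was looked at after its values were seen. It was at 0.404, 0.291 and 0.0906 scaled TPM in TAZ libraries, against 2.01, 1.81 and 1.49 in control libraries, and the groups did not overlap. With a mean of 0.976 TPM it fell just short of the filter, and without the filter its difference of -1.14 did not pass the threshold (limma, adjusted p = 0.074). KCNA10, 152.5 kilobases away, was at or below 0.0549 scaled TPM in every library.

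AQP3 (ENSG00000165272.10), on chromosome 9, 33441152 to 33447609, minus strand, hg19, had the highest level of the 10 genes in control libraries. It was at 9.92, 8.57 and 8.54 scaled TPM in TAZ libraries, against 81.2, 63.6 and 63.7 in control libraries, a difference of -2.81 ± 0.17 on the log2 scale. The TAZ libraries lay close together and far below the control libraries. In TPM the TAZ level was 0.13 of the control level.

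The size of the AQP3 difference depended on the unit, because its reads were given to different transcripts in the 2 groups. In TAZ libraries 100% of the AQP3 bases were assigned to ENST00000493581.1, 2911 bases long and annotated as a retained intron in GENCODE v29. In control libraries 99.9% to 100% were assigned to the coding transcript ENST00000297991.4, 1849 bases in 6 exons. TPM divides by transcript length, so the same number of bases gives a lower TPM on the longer transcript. By aligned bases AQP3 was at 14.8, 12.7 and 12.7 per megabase in TAZ libraries, against 76.9, 60.2 and 60.0 per megabase in control libraries. That is 0.20 of the control level and a difference of -2.20 ± 0.17 on the log2 scale, again with no overlap of the groups.

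In TAZ libraries the AQP3 bases were all in 1 annotated exon of the retained-intron transcript, 33441154 to 33443890, which spans 5 exons of the coding transcript and the 4 introns between them (1079 bases of intron). Its mean depth was 5.41, 4.65 and 4.66. The first exon of the coding transcript, 33447421 to 33447609, was at 0 in every TAZ library, against 8.89, 6.11 and 0 in control libraries. In the last exon of the coding transcript, 33441152 to 33442209, the depth was 5.40, 4.64 and 4.65 in TAZ libraries, against 64.3, 44.1 and 44.1 in control libraries. The size of the difference depended on the exon. The mean depth in TAZ libraries was 0.10 of that in control libraries in the last exon, 0.15 in exon 5 and 0.29 in exon 2. In exons 3 and 4 it was 0.77, at 5.41, 4.65 and 4.66 in TAZ libraries, against 8.83, 6.797 and 3.49 in control libraries, and there the groups overlapped. In TAZ libraries these exons all carry the mean of the 1 long exon, so their depths are not separate measurements. The deposited mean over the long exon cannot tell intron reads from exon reads, so whether unspliced AQP3 RNA was present in TAZ libraries was not measured.

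**Figure D3:**
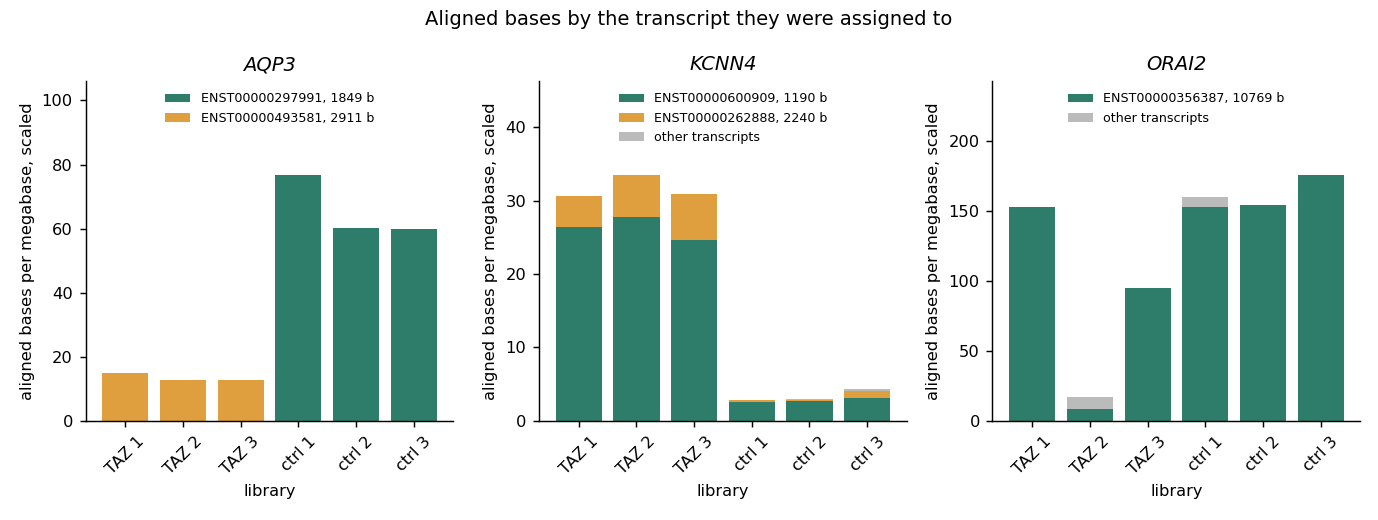
Aligned bases of AQP3, KCNN4 and ORAI2 in each library (bases per megabase aligned, scaled), stacked by the transcript they were assigned to, with transcript lengths in bases (b); TAZ libraries stand left of control libraries (ctrl). AQP3 bases were on a different transcript in the 2 groups, KCNN4 bases mostly on the same one, and TAZ library 2 stands apart for ORAI2.

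The genes whose pattern over the 6 libraries was most like that of AQP3 and KCNA3 were found by the Euclidean distance between log2(scaled TPM + 1) values, each centred on its gene's mean. For AQP3 they were RP11-558F24.6 (distance 0.36), KCNA3 (0.43) and the immunoglobulin light chain segment IGLV6-57 (0.52), against a median of 3.48 over the tested genes. For KCNA3 they were the chemokine CXCL10 (0.37), the secreted matrix protein gene WISP1 (0.37) and RP11-558F24.6 (0.41), against a median of 3.17, and AQP3 came next (0.43). CXCL10 was at 3.15 ± 0.138 scaled TPM in TAZ libraries and 20.3 ± 5.94 in control libraries, and WISP1 at 23.1 ± 2.64 in TAZ libraries and 121 ± 23.0 in control libraries (SD, n = 3 each). RP11-558F24.6 was listed at 0 in every TAZ library and was at 5.93 ± 0.817 in control libraries. Because AQP3 and KCNA3 were chosen for the same difference, their nearness follows in part from the choice. The distance also counts the difference between the groups, so the other genes named here are near because they had a fall of similar size. The medians likewise largely reflect the size of the chosen fall. Whether these genes are alike beyond that fall was not tested.

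The pore genes ORAI1 and ORAI2 did not pass the threshold. ORAI1, which forms the main store-operated pore of lymphocytes, was at 42.9, 22.8 and 21.0 scaled TPM in TAZ libraries, against 31.9, 29.5 and 42.0 in control libraries, and the groups overlapped. Its difference was -0.30 ± 0.31 (limma, adjusted p = 0.63). All its bases lay on 1 transcript of 2 exons.

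ORAI2, which can join ORAI1 in mixed pores, was at 27.6, 19.4 and 17.1 scaled TPM in TAZ libraries, against 56.8, 27.9 and 32.00 in control libraries. Every TAZ library lay below every control library, though TAZ library 1 and control library 2 nearly touched, and the difference was -0.79 ± 0.32 (limma, adjusted p = 0.26). In control library 1, 28.8 of the 56.8 came from ENST00000482237.1, a fragment of 463 bases that held 4.27% of the gene's aligned bases there and received none elsewhere. The main transcript ENST00000356387.2 alone was at 27.6, 1.497 and 17.1 in TAZ libraries, against 27.7, 27.9 and 32.00 in control libraries. Without control library 1 the difference was -0.49. Groups did not overlap in 2 of the 8 tested members, ORAI2 and KCNN4, and in 24.9% of all genes tested. ORAI2 shares its place with ALKBH4 on the opposite strand (29.7 scaled TPM on average), and whether strand was used in assigning reads is not stated.

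By aligned bases ORAI2 was at 153, 16.8 and 94.6 per megabase in TAZ libraries, against 160, 154 and 176 in control libraries. TAZ library 2 held far fewer bases than any other. There 51.0% of the bases were on ENST00000495936.1, of 937 bases, which received none in the other libraries, and depth over the last exon of 10309 bases was 13.7, 1.09 and 8.72 in TAZ libraries, against 14.8, 13.8 and 15.6 in control libraries. The difference by aligned bases, -1.36 ± 0.79, did not pass the threshold (limma, adjusted p = 0.42).

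The sensors also did not pass. STIM1 was at 54.9, 23.6 and 46.4 scaled TPM in TAZ libraries, against 30.4, 32.8 and 28.1 in control libraries, a difference of 0.36 ± 0.32 (limma, adjusted p = 0.58). TAZ libraries 1 and 3 were above every control library and TAZ library 2 was below them all. This library again had little assigned depth in the last exon, and whether reads were missing there or not assigned was not tested. The last exon, 1928 bases at 4112512 to 4114439 on chromosome 11, was read at 32.8, 0.11 and 29.1 in TAZ libraries, against 22.3, 21.0 and 16.7 in control libraries. Over the 11 exons before it (2110 bases) the depth was 22.4, 21.7 and 17.1 in TAZ libraries, against 7.67, 12.003 and 12.008 in control libraries. There TAZ library 2 was level with the other TAZ libraries and the groups did not overlap, a 1.93-fold difference of means that is given without a test because the exons were divided after the values had been seen.

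STIM2, which responds to smaller losses of stored calcium than STIM1, was at 12.5, 10.7 and 16.4 scaled TPM in TAZ libraries, against 24.4, 17.5 and 12.3 in control libraries. The groups overlapped, and the difference was -0.39 ± 0.28 (limma, adjusted p = 0.51). The main transcript ENST00000382009.3 alone was at 4.39, 5.71 and 4.67 in TAZ libraries, against 5.38, 5.60 and 5.67 in control libraries. The rest of the STIM2 level came from fragments of 407 to 1072 bases. Exons 2 to 10 of the main transcript were at 0 in every library. Read depth over its last exon was 3.00, 4.01 and 3.40 in TAZ libraries, against 3.48, 4.07 and 3.38 in control libraries.

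The balance within each pair was compared as a ratio inside each library. STIM1 to STIM2 was 4.39, 2.20 and 2.83 in TAZ libraries, against 1.25, 1.88 and 2.29 in control libraries. On the log2 scale the ratio was higher by 0.78 in TAZ libraries, which did not reach significance (exact two-sided permutation test, p = 0.2, n = 3 each). ORAI1 to ORAI2 was 1.55, 1.18 and 1.22 in TAZ libraries, against 0.561, 1.06 and 1.31 in control libraries, a log2 difference of 0.51 (exact two-sided permutation test, p = 0.3, n = 3 each). Without control library 1 that difference was 0.15, and without TAZ library 1 the STIM1 to STIM2 difference was 0.51. From the most abundant transcript of each gene alone, the STIM1 to STIM2 difference was 0.53 and the ORAI1 to ORAI2 difference 1.39. With 3 libraries against 3 the smallest p this test can give is 0.1, so neither ratio could have passed 0.05. Adjusted over the pair of tests by the Benjamini-Hochberg method, both p-values were 0.3.

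**Figure D4:**
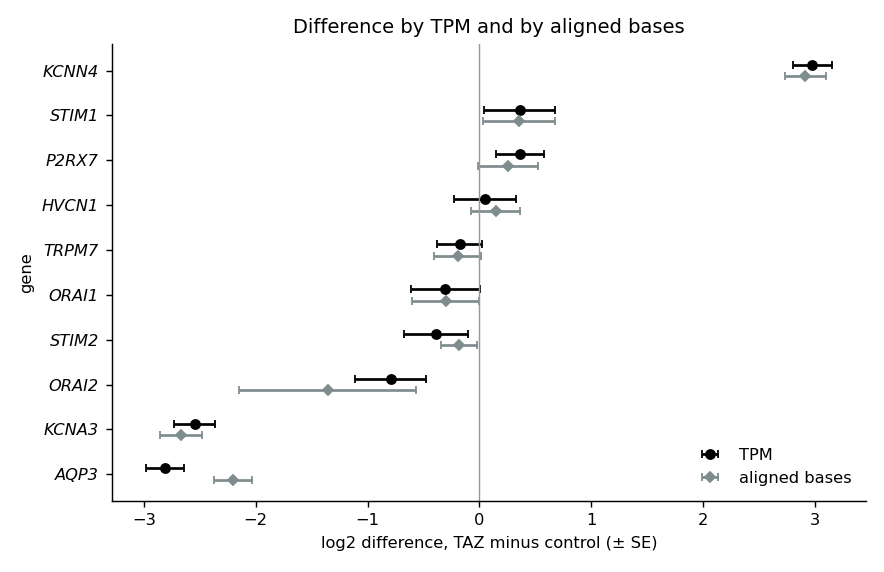
Log2 difference, TAZ minus control, of each channel gene from scaled TPM (black circles) and from aligned bases (grey diamonds), with bars of ± 1 SE from limma. KCNN4 lies near 3 by both measures, AQP3 moves from -2.81 to -2.20 between them, and ORAI2 has the widest bar by aligned bases.

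The 3 remaining channels were low and did not pass. HVCN1 was at 5.40, 2.19 and 3.24 scaled TPM in TAZ libraries, against 3.07, 3.39 and 3.38 in control libraries, with TAZ libraries on both sides of the controls (0.05 ± 0.27, limma, adjusted p = 0.94). In TAZ library 2, 99.4% of its bases were on ENST00000356742.5, which received none in the other TAZ libraries, and the gene overlaps TCTN1 on the opposite strand. TRPM7 was at 5.45, 8.32 and 7.59 in TAZ libraries, against 8.92, 8.48 and 6.92 in control libraries, with overlapping groups (-0.18 ± 0.20, limma, adjusted p = 0.67). The direction of its small difference turned under 2 of the other scalings. P2RX7 was at 2.21, 3.55 and 3.89 in TAZ libraries, against 2.17, 2.15 and 2.39 in control libraries. Its TAZ libraries 2 and 3 were above every control library and TAZ library 1 was among them (0.36 ± 0.21, limma, adjusted p = 0.42). The coding P2RX7 transcript ENST00000328963.5 received no bases in any library. In TAZ library 2, 99.8% were on ENST00000546057.1. In every other library most were on transcripts annotated as nonsense-mediated decay in GENCODE v29, so the P2RX7 level also rests on transcript assignment.

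Precision differed between the genes. The aligned sequence behind a value ran from 2.99 to 7.20 kilobases per library for HVCN1 and from 3.85 to 7.46 kilobases for P2RX7, against 20.8 to 304 kilobases for ORAI2. For KCNN4 it was 48.7, 41.7 and 43.6 kilobases in TAZ libraries, against 4.87, 5.96 and 4.58 kilobases in control libraries. The median SE over all tested genes was 0.24 on the log2 scale, and the SE of the 10 genes ran from 0.17 to 0.32.

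The order of the levels per length differed between the groups. In TAZ libraries KCNN4 (47.8 ± 2.57 scaled TPM) and STIM1 (41.7 ± 16.2) came first and did not differ beyond their spread, followed by ORAI1 (28.9 ± 12.1), ORAI2 (21.4 ± 5.53), STIM2 (13.2 ± 2.92), AQP3 (9.01 ± 0.787) and TRPM7 (7.12 ± 1.49). Of these neighbours, STIM2 and AQP3 alone lay further apart than their summed SD. Their order rests on the transcripts assigned. The AQP3 bases were divided by the 2911 bases of the retained-intron transcript, and the main STIM2 transcript alone was at 4.39, 5.71 and 4.67 in TAZ libraries. The place of KCNN4 also rests on the transcripts assigned, since most of its TPM came from the partial transcript of 1190 bases. Full-length KCNN4 alone was at 3.61, 5.10 and 5.48 in TAZ libraries, against 0.192, 0.151 and 0.796 in control libraries. HVCN1 (3.61 ± 1.64), P2RX7 (3.22 ± 0.885) and KCNA3 (3.16 ± 0.174) came last and could not be ranked among themselves. In control libraries AQP3 (69.5 ± 10.1) stood alone at the top. ORAI2 (38.9 ± 15.6), ORAI1 (34.5 ± 6.63), STIM1 (30.4 ± 2.35), KCNA3 (23.6 ± 4.56) and STIM2 (18.0 ± 6.07) followed, each within the spread of the next or close to it. Here too the places of ORAI2 and STIM2 rest on the transcripts assigned. In control libraries the main ORAI2 transcript alone was at 27.7, 27.9 and 32.0, and the main STIM2 transcript alone at 5.38, 5.60 and 5.67. TRPM7 (8.11 ± 1.05), KCNN4 (5.26 ± 1.04), HVCN1 (3.28 ± 0.183) and P2RX7 (2.23 ± 0.133) were lowest, each further from the next than their summed SD (SD, n = 3 each).

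To set these channels among the rest of their pathways, 7 lists with 147 further genes were counted, of which 90 were tested. MCU was the only 1 that rose and KCNK13 the only 1 that fell, together 2.22% of those tested, below the 3.21% over all genes. Both calls were lost without the filter on low values, with the replicate number as a block, and when TAZ library 2, TAZ library 3 or control library 2 was left out. The lists held 1 call at a mean of 5 TPM or more, without scaling, and when control library 1 or control library 3 was left out. The median log2 difference over all tested genes was -0.05. Without scaling between libraries that median was 0.17, and differences are read relative to it.

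Among the potassium channels and subunits, 6 of 22 were tested and 1 fell, with a list median of -0.14. KCNK13, a background potassium channel, was at 3.00, 1.70 and 2.06 scaled TPM in TAZ libraries, against 6.69, 5.90 and 5.96 in control libraries. Every TAZ library was lower than every control library, and the difference was -1.16 ± 0.20 (limma, adjusted p = 0.033). Among 13 further aquaporins only AQP11 was tested, at 1.43 to 2.26 in TAZ libraries and 1.34 to 1.63 in control libraries (limma, adjusted p = 0.60).

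Of 20 genes of store-operated entry and calcium stores 17 were tested and 1 rose, with a list median of 0.30. MCU, the pore of the mitochondrial calcium uniporter, was at 36.1, 44.3 and 38.4 scaled TPM in TAZ libraries, against 18.8, 15.1 and 16.0 in control libraries. The groups were clearly separate, with a difference of 1.21 ± 0.17 (limma, adjusted p = 0.014). Calcineurin and NFAT genes gave no call in 17 tested of 18. CALM3, a calmodulin gene, was at 465 ± 69.1 in TAZ libraries and 510 ± 79.9 in control libraries (limma, adjusted p = 0.76), and CALM2, another, at 105 ± 23.5 in TAZ libraries and 90.9 ± 16.4 in control libraries (limma, adjusted p = 0.68).

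The other 3 lists also gave no call. For cell volume, chloride and proton transport 23 of 26 were tested, with a median of -0.02. CYBA, a subunit of the NADPH oxidase, varied widely, from 65.8 to 181 in TAZ libraries and from 53.1 to 208 in control libraries, and WNK1, a kinase of chloride handling, ran from 30.7 to 40.7 in TAZ libraries and from 31.5 to 53.7 in control libraries. For purinergic receptors and ATP handling 12 of 22 were tested, with a median of -0.22. P2RY11, a receptor for ATP, ran from 19.5 to 27.8 in TAZ libraries and from 27.4 to 41.2 in control libraries, and ADA, adenosine deaminase, from 11.9 to 20.4 in TAZ libraries and from 12.7 to 23.5 in control libraries. For TRP channels, PIEZO channels and magnesium transport 14 of 26 were tested, with a median of -0.14. PIEZO1, a channel opened by membrane stretch, ran from 119 to 149 in TAZ libraries and from 41.2 to 146 in control libraries, and NIPA2, a magnesium transporter, from 31.9 to 36.3 in TAZ libraries and from 39.7 to 47.5 in control libraries. At an unadjusted p under 0.05 (limma), the counts were 5 of 17 tested for store-operated entry and calcium stores, 1 of 6 for potassium channels and subunits, 2 of 17 for calcineurin and NFAT, 1 of 23 for cell volume, chloride and proton transport, 2 of 12 for purinergic receptors, 2 of 14 for TRP, PIEZO and magnesium genes and 0 of 1 for aquaporins. Over all tested genes the share was 18.0%.

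**Figure D5:**
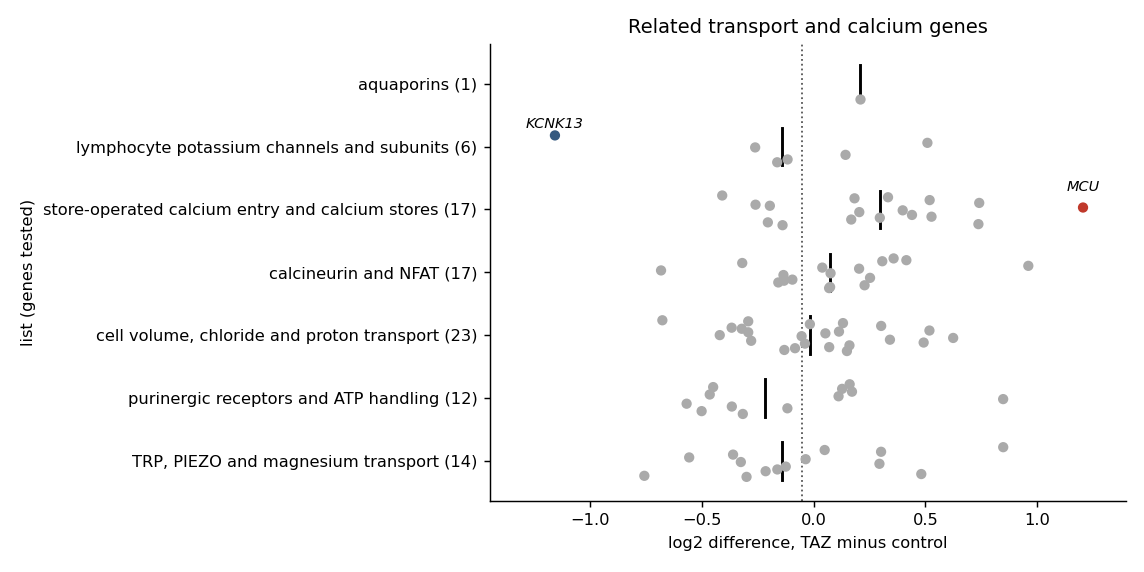
Log2 difference, TAZ minus control, of the tested genes of 7 related lists; each point is a gene, the black bar is the list's median, and the dotted line is the median of all tested genes (-0.05). MCU (red) was called higher and KCNK13 (blue) lower, and the other points, in grey, did not pass the threshold.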

How the data were processed

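Polyadenylated RNA of KMM1 was measured in 3 TAZ and 3 control libraries, grouped by the labels. Alignment to hg19 used STAR 2.3.0 and Bowtie2 2.0.0, and quantification used StringTie 1.3.3b, per the submitters' processing notes. Neither the annotation release nor the use of strand is stated. Per the file headers, StringTie estimated supplied transcripts only. For each of 195984 transcripts the authors deposited coverage (mean read depth, also for each exon), FPKM and TPM. Per the labels, libraries were sequenced 2 to a chip; which ones shared a chip is not stated, so differences between chips were not tested. No label speaks of separate cultures, and a p-value here measures only how these samples spread, which may be technical.

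TPM deposited by the authors was summed per gene and scaled by the median of ratios over 28148 genes above 0 in every library (factors 0.962, 1.20 and 1.23 for TAZ, and 0.994, 0.944 and 0.873 for control libraries). The test on log2(scaled TPM + 1), a scale that understates changes of low genes, took all genes whose mean reached 1 TPM. It used limma 3.58.1 in R 4.3.3 (trend and robust), without a block, and the Benjamini-Hochberg method. Ratios within a library were compared by exact permutation. Aligned bases are coverage times transcript length, and depth over an exon is the sum of the deposited exon coverages that cover it. Full-length transcripts were the principal ones of GENCODE v29, or else the one with most bases. No read counts were used.

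The members and lists were chosen with earlier results of these data known. Named were the members, list genes past the threshold (or, with none, the 2 of highest level), the 3 nearest genes of AQP3 and of KCNA3, and WWTR1. KCNA2 and KCNA10 and the measures by aligned bases and by exon were added after values were seen. Alternatives were other pseudocounts, filters, scalings, FPKM, another limma setting, a block and leaving out each library.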

Additional observations from a re-analysis of the deposited data

How the results depend on the processing

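KCNN4 was called higher in TAZ libraries under all 17 other settings, with log2 differences from 2.80 to 3.22 and adjusted p (limma) from 3.28e-04 to 0.021, and the count of called members among the 8 tested stayed at 1 in all 17. AQP3 differences ran from -2.93 to -2.20 and KCNA3 differences from -2.84 to -2.31. The smallest AQP3 difference was the one by aligned bases. TRPM7 turned to 0.057 without scaling and to 0.0067 with upper quartile scaling, and HVCN1, from -0.220 without TAZ replicate 1 to 0.281 without TAZ replicate 2, changed sign; none of these passed the threshold. HVCN1 and P2RX7 were not tested at a mean of at least 5 TPM. Over all genes 623 were called, 352 without the filter on low values, 236 with the replicate number as a block, and 278 to 774 when a library was left out (278 without TAZ replicate 2, 331 without TAZ replicate 3, 349 without control replicate 2 and 410 without control replicate 1). The related lists held 2 calls, 0 without the filter, 1 at a mean of at least 5 TPM, 1 without scaling, 3 by aligned bases, 0 with the replicate block, and 0 to 2 when a library was left out (0 without TAZ replicate 2, TAZ replicate 3 or control replicate 2). The causes were not tested. The ratio STIM1 to STIM2 ran from 0.51 to 1.39 on the log2 scale (exact permutation, p from 0.1 to 0.4) and ORAI1 to ORAI2 from 0.15 to 1.39 (exact permutation, p from 0.1 to 0.7). Leaving out control replicate 1 gave 0.15 for ORAI1 to ORAI2. The replicate block cannot change a mean difference here (0.78 and 0.51). Under it the exact permutation p was 0.25 for STIM1 to STIM2 and 0.5 for ORAI1 to ORAI2. The smallest p this blocked test can give is 0.25, so neither ratio could have passed 0.05. With the block KCNN4 had an adjusted p (limma) of 0.021, and no other member's call changed. Residuals of same-numbered libraries correlated at 0.004, -0.024 and -0.055, so the numbers were not taken to pair the libraries.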
